A study of Mus musculus with 20 samples.

Results

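Matrix metalloproteases are secreted or membrane-bound, zinc-dependent enzymes that cut collagens, gelatins and other proteins of the extracellular matrix, and the tissue inhibitors of metalloproteases (TIMPs) are secreted proteins that block their active sites. Described here are 9 such genes in fibroblasts cultured directly from mouse embryos. The 6 proteases are Mmp2, Mmp3, Mmp9, Mmp10, Mmp13 and Mmp14, and the 3 inhibitors are Timp1, Timp2 and Timp3. They were taken by name, with every probe set (a group of array probes for a transcript) that the platform annotation gives to a single one of these symbols. This gave 20 probe sets of the 22626 on the array that are no controls, and 9 of its 12393 named genes.

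The study compared cells that lack E2F4, an E2F transcription factor best known for repressing cell cycle genes, with wild type cells. The 10 E2F4 null cultures came from 5 E2F4 null embryos, 2 cultures each, and the 10 wild type cultures came from 3 wild type embryos, with 3, 3 and 4 cultures. All embryos were taken at 13.5 days post coitum, and each culture was hybridised to 1 Affymetrix array. In the comparison of genotypes the embryo was the replicate, so its p-values are set against the spread between these embryos. The F tests between embryos of 1 genotype are set against the spread between cultures instead. Comparisons of genotypes that enter the cultures are named as such. The labels give no E2F4 allele, deleted region, strain, sex, litter or passage.

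Fibroblasts make and turn over connective tissue matrix and are a main source of these proteins. The proteases are made as inactive proenzymes. Mmp14 sits in the plasma membrane, and it activates pro-Mmp2 in a complex in which a Timp2 molecule holds the proenzyme, so that Timp2 serves activation as well as inhibition. Genes such as Mmp3, Mmp10 and Mmp13 are known for steep induction in fibroblasts by growth factors and inflammatory cytokines through AP-1, a dimer of Jun and Fos proteins.

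The promoters of Mmp3, Mmp10, Mmp13 and Timp1 are shown because these 3 proteases belong to the cytokine-inducible class and because Timp1 was the member whose genotype groups stood clear of each other. Each window holds 250 bases before and 50 bases after the annotated start, is read 5′ to 3′ on the plus strand, and comes from RefSeq on build GRCm38.p6. The windows are chr9:7445572-7445871 for Mmp3, chr9:7502092-7502391 for Mmp10, chr9:7272264-7272563 for Mmp13 and chrX:20869916-20870215 for Timp1. Capitals mark the AP-1 motif TGANTCA, its variant TGAGTAA, the TATA box TATAAA and the GC box GGGCGG, which reads CCGCCC where it lies on the other strand.
Mmp3: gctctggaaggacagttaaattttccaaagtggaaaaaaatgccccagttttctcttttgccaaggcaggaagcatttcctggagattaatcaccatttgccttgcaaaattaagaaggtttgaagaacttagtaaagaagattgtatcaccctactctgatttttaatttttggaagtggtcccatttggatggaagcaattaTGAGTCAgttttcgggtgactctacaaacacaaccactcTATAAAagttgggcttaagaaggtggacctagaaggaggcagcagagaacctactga
Mmp10: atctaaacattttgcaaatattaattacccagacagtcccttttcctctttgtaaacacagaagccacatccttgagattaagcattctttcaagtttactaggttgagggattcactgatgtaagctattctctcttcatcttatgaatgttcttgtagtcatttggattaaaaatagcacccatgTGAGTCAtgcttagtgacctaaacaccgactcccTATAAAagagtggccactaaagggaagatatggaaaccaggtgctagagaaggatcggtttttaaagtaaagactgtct
Mmp13: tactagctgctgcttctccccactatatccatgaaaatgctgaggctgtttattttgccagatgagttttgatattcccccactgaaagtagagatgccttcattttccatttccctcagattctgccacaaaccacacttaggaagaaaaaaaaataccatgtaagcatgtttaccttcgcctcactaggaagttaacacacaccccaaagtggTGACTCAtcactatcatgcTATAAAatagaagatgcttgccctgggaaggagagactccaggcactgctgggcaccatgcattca
Timp1: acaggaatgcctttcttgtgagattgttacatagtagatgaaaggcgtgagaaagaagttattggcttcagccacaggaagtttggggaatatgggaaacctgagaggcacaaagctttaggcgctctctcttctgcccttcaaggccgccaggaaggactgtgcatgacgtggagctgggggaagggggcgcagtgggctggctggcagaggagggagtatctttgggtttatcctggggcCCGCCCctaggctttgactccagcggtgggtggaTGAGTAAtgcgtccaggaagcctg

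All 4 motifs were searched on both strands, and the marked motifs do not overlap each other. In Mmp3 the AP-1 motif TGAGTCA begins 46 bases before the start and the TATA box 7 bases before it. In Mmp10 they begin 63 and 29 bases before the start, and in Mmp13, with TGACTCA, 35 and 16 bases before it. The Timp1 window holds neither of these. It has a GC box that begins 8 bases before the start and the variant TGAGTAA at base 27 after it. A promoter entry was found for 7 of the 9 members, all but Mmp2 and Mmp9. The windows of Mmp14, Timp2 and Timp3 hold 2, 1 and 2 GC boxes and neither AP-1 motif nor TATA box. Of 32851 RefSeq promoter windows of the same length, 7.81% hold TGANTCA, 2.68% the variant, 13.6% TATAAA, 35.7% a GC box, and 1.54% both TGANTCA and TATAAA. None of the 7 member windows holds TTTCCCGC, TTTGGCGC, TTTGCCGC or TTTCGCGC, forms of the E2F motif that 2.26% of all windows hold. These matches describe letters in the windows, and no binding was measured.

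The values are MAS5 signals, a linear intensity for each probe set. Their trimmed mean was 500.2 on every array and the array medians ran between 134.8 and 145.6, so a change shared by all genes would not be seen. On 3 arrays, culture 2 of E2F4 null embryos 2 and 4 and of wild type embryo 1, control probe sets lay over 3.5 median absolute deviations from the other arrays; leaving these out changed no member's call between genotypes. The E2f4 signal was 157, 167, 156, 155 and 196 in E2F4 null embryos 1 to 5, against 209, 212 and 221 in wild type embryos 1 to 3. It was thus lower in every E2F4 null embryo but not lost, and the log2 difference was -0.35 (limma adjusted p = 0.363). Whether the probes lie in the deleted part is not given in the sources used here. All 10 fibroblast markers passed the low-signal filter in use below, 6 of them with a difference below 0 (median log2 difference -0.05). Their summed signal ran between 80012 and 92299 in E2F4 null and between 88895 and 90635 in wild type embryos. This sum rests mostly on bright markers such as Vim and hides the spread of dimmer ones. Lum averaged 733 ± 549 in E2F4 null and 966 ± 1116 in wild type embryos (SD, n = 5 and 3 embryos). Pdgfra averaged 784 ± 501 in E2F4 null and 748 ± 512 in wild type embryos, and Dcn 203 ± 88.9 and 300 ± 174. Of the macrophage markers, 8 of 10 passed, all higher in the E2F4 null mean (median log2 difference 0.33, none called), with sums of 1371 to 4623 in E2F4 null and 1717 to 2676 in wild type embryos. Ptprc and Itgam were under the filter, as were all 6 neutrophil markers. Of the 5 epithelial markers 2 passed, Krt19 and Krt18, at 0.51 and 0.38, and Krt8, below the filter, was higher in every E2F4 null embryo (0.43), while Cdh1 and Epcam had at most 30.2 on any array; the sum ran between 400.0 and 737 in E2F4 null and between 313 and 554 in wild type embryos. Of the 6 cartilage and bone markers on the array 3 passed (sums 872 to 999.6 in E2F4 null and 838 to 908 in wild type). Col2a1 was higher in every E2F4 null embryo (0.33, limma adjusted p = 0.431), while Acan had a lower E2F4 null mean (-0.42, limma adjusted p = 0.658). Sox9, which also passed, differed by 0.002. Sp7, below the filter, was lower in every E2F4 null embryo (-0.28). Of all genes past the filter, 3.71% had every E2F4 null embryo below every wild type embryo. The share with every E2F4 null embryo above was not worked out. Of the 6 endothelial markers 2 passed (median -0.02; sums 449 to 685 in E2F4 null and 429 to 758 in wild type). None of these markers was called, and their part in the results was not tested. In such bulk cultures fewer cells of a type and less RNA per cell cannot be told apart.

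Differences below are E2F4 null minus wild type on log2(signal + 16), a scale that understates the change of low signals. Genes were tested when the mean signal of their brightest probe set passed the 40th percentile of all genes, a signal of 80.2. All members but Mmp10 and Mmp13 did so, and these 2 were tested by probe set only. No member differed between the genotypes at a limma adjusted p under 0.05 (0 of 7), against 0.0134% of the 7436 genes tested, a single gene. In the fit of all probe sets, 0 of the 20 members' probe sets passed, against 0% of 22626. Before adjustment, 2 of the 7 genes, Timp1 and Mmp2, had a limma p under 0.05, and both were lower in E2F4 null cells, as were 4.75% of all genes (8.7% in either direction). Among probe sets it was 8 of 20, all lower, against 3.47% of all probe sets lower and 7.1% in either direction. The difference was below 0 for 7 of the 7 genes and 18 of the 20 probe sets, against 51% of all genes and 48.3% of all probe sets. The median difference was -0.29 over the 7 genes and -0.21 over the 20 probe sets, against -0.0033 over all genes and 0.0065 over all probe sets. Probe sets of 1 gene are not independent of each other, and Timp2 and Timp3 hold 10 of the 20.

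**Figure D1:**
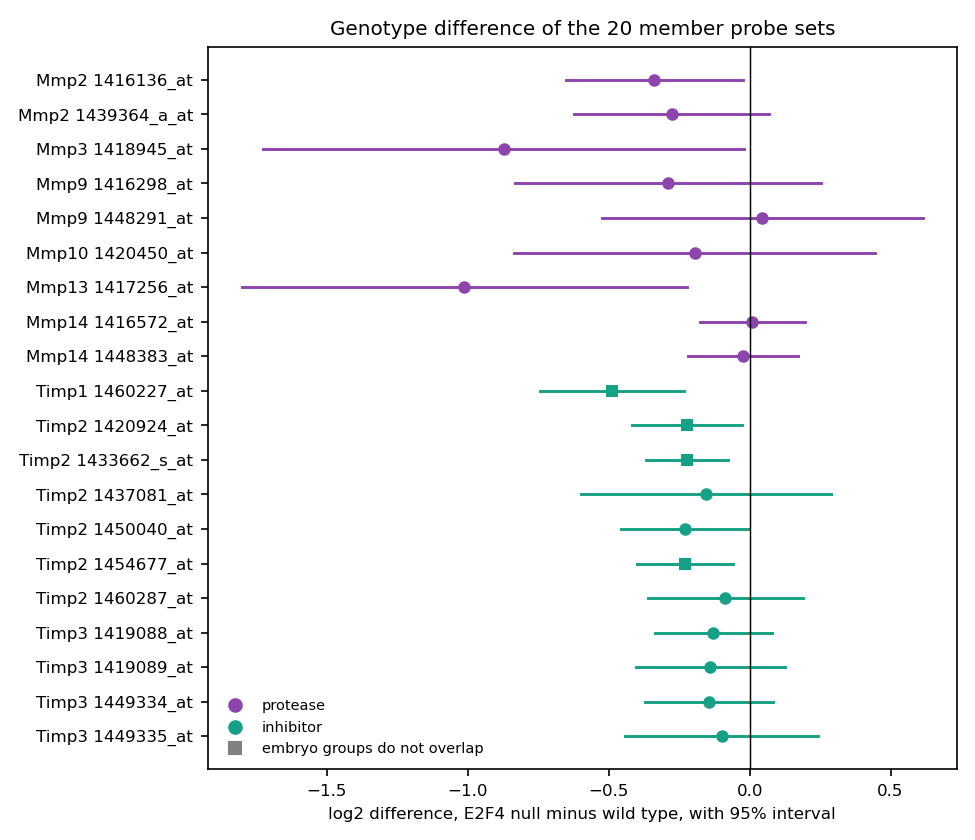
The log2 difference (E2F4 null minus wild type) of each of the 20 probe sets is drawn on the x axis with its 95% interval from limma, proteases in purple above and inhibitors in green below, with squares where the 5 E2F4 null and 3 wild type embryos did not overlap. The widest intervals are those of Mmp3 and Mmp13, and the 4 squares are Timp1 and 3 probe sets of Timp2.

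The gelatinases Mmp2 and Mmp9 digest denatured collagen and basement membrane collagen. The Mmp2 signal was 1000.3, 1218, 1154, 933 and 976 in E2F4 null embryos 1 to 5, against 1509, 1527 and 1028 in wild type embryos 1 to 3. The first 2 wild type embryos were above all others, while wild type embryo 3 lay among the E2F4 null embryos, 3 of which were below it and 2 above. Mmp2 averaged 1056 ± 123 in E2F4 null embryos and 1355 ± 283 in wild type embryos (SD, n = 5 and 3 embryos). The log2 difference was -0.34 (SE 0.14, limma adjusted p = 0.547 over all genes). It moved to -0.52 without wild type embryo 3 and to -0.24 without wild type embryo 2, with no call. Its other probe set gave the same order of wild type embryos, with 2 of 5 E2F4 null embryos below the lowest of them and a difference of -0.28 (SE 0.15, limma adjusted p = 0.780 over all probe sets). That value was -0.48 with wild type embryo 3 left out and -0.16 with wild type embryo 2 left out.

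The 2 Mmp9 probe sets differed in sign. The brighter one read 143, 123, 76.5, 88.5 and 67.3 in E2F4 null embryos 1 to 5, against 157, 123 and 92.4 in wild type embryos 1 to 3. E2F4 null embryos 1 and 2 lay within the wild type range, and the other 3 were below the lowest wild type embryo. The log2 difference was -0.29 (SE 0.24, limma adjusted p = 0.763 over all genes). Leaving out wild type embryo 1 gave -0.12, leaving out wild type embryo 3 gave -0.48 and leaving out E2F4 null embryo 5 gave -0.18, each time with no call. The second probe set read 124, 91.5, 69.9, 86.4 and 66.2 in E2F4 null embryos 1 to 5, against 114, 101 and 48.8 in wild type embryos 1 to 3, and its difference was 0.05 (SE 0.25, limma adjusted p = 0.986 over all probe sets), with -0.28 to 0.25 when a wild type embryo was left out (embryos 3 and 1). Here the lowest embryo was wild type embryo 3, and 4 of the 5 E2F4 null embryos lay within the wild type range.

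Mmp3 (stromelysin-1) cuts proteoglycans, fibronectin and other matrix proteins and can activate other proenzymes. Its signal was 78.8, 86.4, 128, 139 and 139 in E2F4 null embryos 1 to 5, against 418, 93.5 and 249 in wild type embryos 1 to 3. The E2F4 null embryos lay closer together than the wild type embryos, in the lower part of the range. The 3 wild type embryos were far apart, with embryos 1 and 3 above every E2F4 null embryo and embryo 2 among them. Mmp3 averaged 114 ± 29.2 in E2F4 null embryos and 254 ± 162 in wild type embryos (SD, n = 5 and 3 embryos), and the log2 difference was -0.87 (SE 0.39, limma adjusted p = 0.587 over all genes), with a 95% interval between -1.76 and 0.01. The size of this difference depended on which wild type embryos entered. It was -0.42 when wild type embryo 1 was left out and -1.42 when wild type embryo 2 was (limma adjusted p = 0.129). The cultures of an embryo differed little: wild type embryo 1 gave 391.7, 436 and 427, wild type embryo 2 gave 85.1, 93.6 and 102, and wild type embryo 3 gave 261, 260.0, 237 and 238.

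Mmp13 (collagenase-3) cuts fibrillar collagen. Its signal was 50.9, 35.2, 28.5, 53.7 and 32.5 in E2F4 null embryos 1 to 5, against 199, 95.1 and 45.5 in wild type embryos 1 to 3. Wild type embryos 1 and 2 stood above all E2F4 null embryos, and wild type embryo 3 lay among them, above 3 of the 5. Mmp13 averaged 40.2 ± 11.4 in E2F4 null embryos and 113 ± 78.1 in wild type embryos (SD, n = 5 and 3 embryos), and the log2 difference by probe set was -1.01 (SE 0.35, limma adjusted p = 0.613 over all probe sets). It was -0.54 when wild type embryo 1 was left out and -1.47 when wild type embryo 3 was, with no call in either case. The wild type embryos were thus in another order than for Mmp3, for which embryo 2 and not embryo 3 was the lowest. Most of these signals were below the 80.2 of the filter, and no detection calls were used here, so the lower ones cannot be told from background.

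Mmp10 (stromelysin-2) is close to Mmp3 in sequence and substrates. Its signal was 52.9, 79.6, 23.6, 39.4 and 36.3 in E2F4 null embryos 1 to 5, against 61.0, 67.3 and 32.3 in wild type embryos 1 to 3. All 8 embryos were below the filter, the groups overlapped widely, and the highest and the lowest embryo were both E2F4 null. The log2 difference was -0.20 (SE 0.29, limma adjusted p = 0.933 over all probe sets), and with an embryo left out it ran between -0.43 (wild type embryo 3) and -0.04 (E2F4 null embryo 3).

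Mmp3, Mmp10 and Mmp13 lie in a chromosome 9 cluster of 10 MMP genes in the RefSeq annotation, of which 9 were on the array. The other 6 measured there, Mmp1a, Mmp1b, Mmp7, Mmp8, Mmp12 and Mmp20, had low signals on all 20 arrays, with 44.4 the highest. Within the cluster, Mmp3, Mmp10 and Mmp13 thus held every signal above that value. Their differences were -0.87, -0.20 and -1.01, while Mmp12, the macrophage elastase, averaged 27.9 ± 10.1 in E2F4 null and 19.0 ± 9.20 in wild type embryos (0.33).

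Mmp14, the membrane-type protease that activates Mmp2, had the narrowest interval of the 6 proteases. Its signal was 3957, 3789, 3507, 3322 and 3531 in E2F4 null embryos 1 to 5, against 4215, 3358 and 3508 in wild type embryos 1 to 3. The highest embryo was wild type embryo 1, and 4 of the 5 E2F4 null embryos lay within the wild type range. Mmp14 averaged 3621 ± 251 in E2F4 null embryos and 3694 ± 458 in wild type embryos (SD, n = 5 and 3 embryos). The log2 difference was -0.02 (SE 0.09, limma adjusted p = 0.954 over all genes), and its 95% interval, between -0.22 and 0.17, leaves room for a change of either sign within those bounds. The second probe set differed by 0.01 (SE 0.08, limma adjusted p = 0.992 over all probe sets), with all 5 E2F4 null embryos inside the wild type range.

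**Figure D2:**
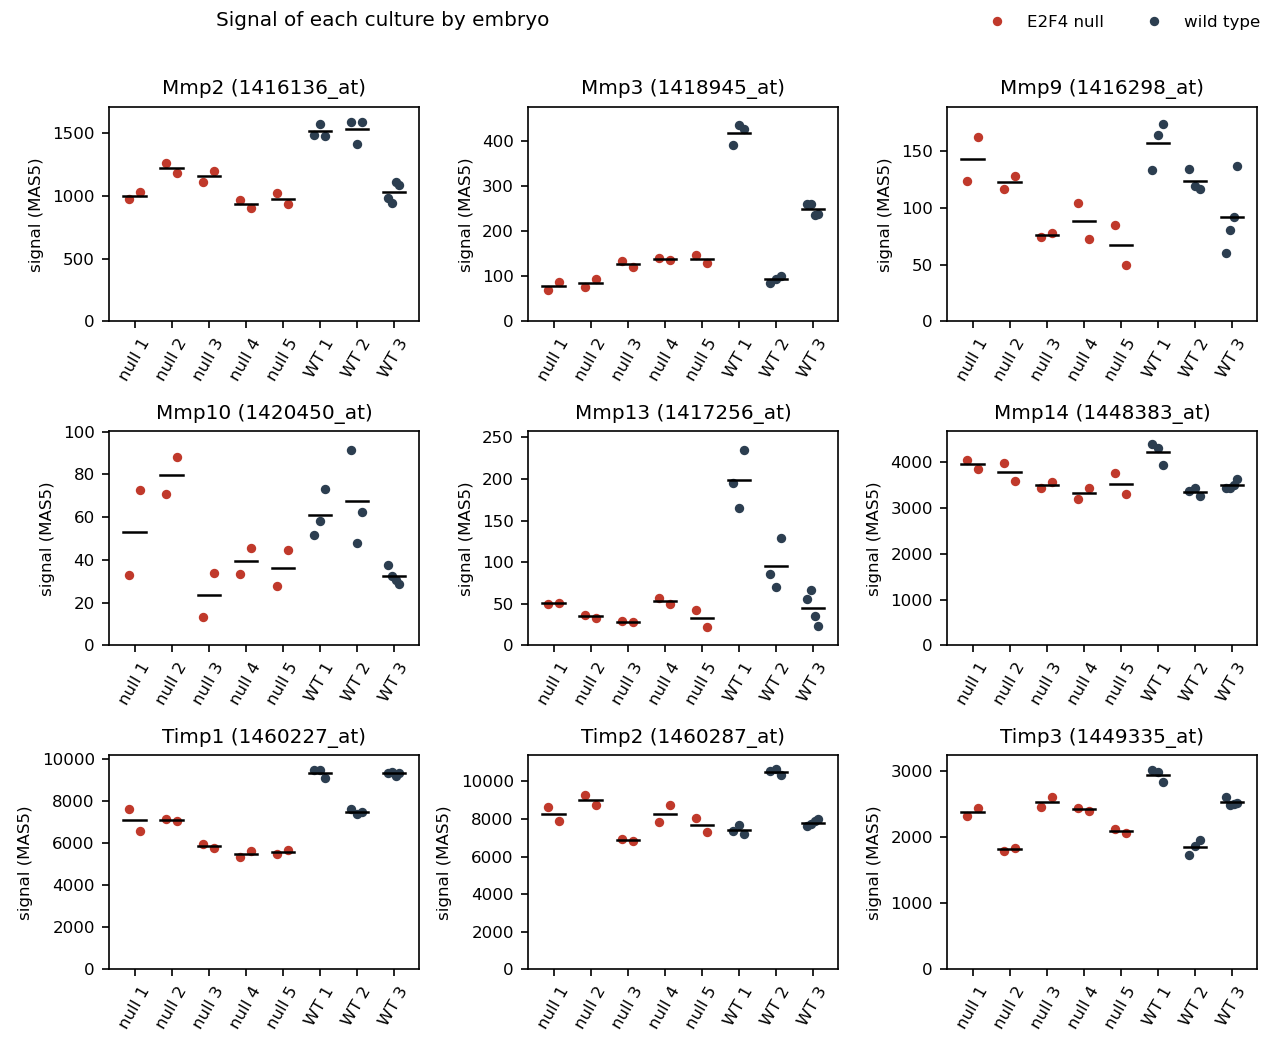
Each panel plots the MAS5 signal (y axis, linear, starting at 0) of a member's brightest probe set in each culture (points), by embryo (x axis, E2F4 null in red at the left, wild type in dark blue at the right), with a bar at the embryo mean. The 3 wild type embryos of Mmp3 lie near 418, 93.5 and 249 with little spread among their cultures, and all E2F4 null embryos of Timp1 lie below all wild type embryos.

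Among the inhibitors, Timp1 blocks most secreted MMPs and is known to bind pro-Mmp9. Its signal was 7086, 7081, 5859.8, 5492 and 5578 in E2F4 null embryos 1 to 5, against 9347, 7490.0 and 9309 in wild type embryos 1 to 3. All 5 E2F4 null embryos were below all 3 wild type embryos. Wild type embryo 2 was the lowest of its group, with cultures at 7599.7, 7372 and 7498, while 1 culture of E2F4 null embryo 1 read 7605. Timp1 was the single member of the 7 whose groups did not overlap, against 3.71% of all genes with every E2F4 null embryo below every wild type embryo. It averaged 6219 ± 801 in E2F4 null embryos and 8715 ± 1061 in wild type embryos (SD, n = 5 and 3 embryos). The log2 difference was -0.49 (SE 0.12, limma adjusted p = 0.293 over all genes), with a 95% interval between -0.75 and -0.23, and it ranked 55 of 7436 genes by p. Over all alternatives the difference stayed between -0.59 and -0.38. Its limma adjusted p over all genes rose to 0.819 without wild type embryo 1. Without E2F4 null embryo 3, 4 or 5 that p was 0.632, 0.592 or 0.624. Timp1 passed the threshold where cultures entered in place of embryo means, with a limma adjusted p of 0.00243 with the embryo as a random block. That fit takes 1 correlation between cultures of an embryo for all genes (0.51). Timp1 had a log2 SD between cultures of 0.07 in E2F4 null and 0.02 in wild type, against 0.18 between embryos of each genotype. Its cultures of an embryo were thus close, and this p may still count them in part as replicates.

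Timp2 had 6 probe sets, and all 6 were lower in the E2F4 null mean, by between 0.09 and 0.23 on the log2 scale. The brightest, which stood for the gene, read 8265, 9012, 6860.1, 8271 and 7676 in E2F4 null embryos 1 to 5, against 7418, 10512 and 7802 in wild type embryos 1 to 3. Wild type embryo 2 was the highest and E2F4 null embryo 3 the lowest, with 4 of the 5 E2F4 null embryos inside the wild type range. The difference was -0.09 (SE 0.12, limma adjusted p = 0.879 over all genes), and it ran between -0.18 and 0.07 with a wild type embryo left out (embryos 1 and 2).

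The other Timp2 probe sets showed a different pattern. Probe set 1433662_s_at read 3777, 3864, 3315, 3761 and 3585 in E2F4 null embryos 1 to 5, against 4137, 4419 and 4246 in wild type embryos 1 to 3. No E2F4 null embryo reached the lowest wild type embryo, and the difference was -0.22 (SE 0.06, limma adjusted p = 0.516 over all probe sets). Probe set 1454677_at read 3521, 3792, 3241, 3802 and 3412 in E2F4 null embryos 1 to 5, against 3884, 4530.3 and 4106 in wild type embryos 1 to 3, again without overlap, at -0.23 (SE 0.08, limma adjusted p = 0.561 over all probe sets). Probe set 1420924_at read 1825, 1788, 1566, 1719 and 1879 in E2F4 null embryos 1 to 5, against 1879.7, 2344 and 1949 in wild type embryos 1 to 3, where E2F4 null embryo 5 came within 1 signal unit of wild type embryo 1, at -0.22 (SE 0.09, limma adjusted p = 0.658 over all probe sets); without wild type embryo 2 it was -0.13. In 1450040_at 1 of the 5 E2F4 null embryos lay within the wild type range, and the difference was -0.23 (SE 0.10, limma adjusted p = 0.698 over all probe sets), or -0.13 with wild type embryo 2 left out. The sixth, 1437081_at, had signals of 2.73 to 28.7 on the 20 arrays and differed by -0.15 (SE 0.20, limma adjusted p = 0.920 over all probe sets), or by -0.27 to -0.06 with an E2F4 null embryo left out. With Timp1, 4 of the 20 probe sets had every E2F4 null embryo below every wild type embryo, against 2.61% of all probe sets, and 3 of these 4 were of Timp2. The value for Timp2 thus depended on the probe set, with -0.09 for the brightest one and -0.22 to -0.23 for 4 dimmer ones. The transcript each probe set reads is not given in the sources used here.

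**Figure D3:**
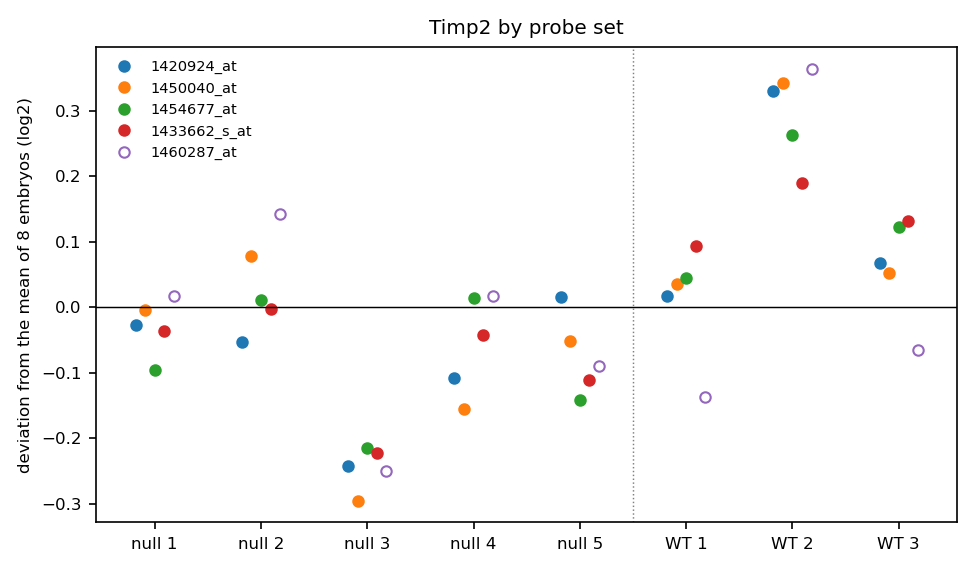
For 5 of the 6 Timp2 probe sets (colours; 1437081_at is left out for its low signal), the log2 deviation of each embryo from the mean of the 8 embryos (y axis) is plotted by embryo (x axis, E2F4 null left, wild type right of the dotted line). The open circles of 1460287_at lie below 0 in wild type embryos 1 and 3, where the other 4 lie above 0.

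Timp3 stays bound to the matrix and inhibits several ADAM and ADAMTS proteases besides MMPs. Its brightest probe set read 2387, 1821, 2535, 2427 and 2095 in E2F4 null embryos 1 to 5, against 2950.1, 1847 and 2532 in wild type embryos 1 to 3. Wild type embryo 1 was the highest, while wild type embryo 2 was second lowest, and 4 of the 5 E2F4 null embryos lay within the wild type range. Timp3 averaged 2253 ± 291 in E2F4 null embryos and 2443 ± 557 in wild type embryos (SD, n = 5 and 3 embryos), and the log2 difference was -0.10 (SE 0.16, limma adjusted p = 0.888 over all genes). The other 3 Timp3 probe sets differed by -0.13 to -0.14, with limma adjusted p between 0.828 and 0.860, and none of the 4 separated the groups. Left-out embryos moved these values too: 1419089_at was -0.01 and 1419088_at -0.04 without wild type embryo 1, they were -0.29 and -0.22 without wild type embryo 2, and 1449334_at was -0.08 without E2F4 null embryo 1. The brightest ran between -0.29 (without wild type embryo 2) and 0.05 (without wild type embryo 1). By their brightest probe sets, Timp2 and Timp3 thus both had their wild type extremes in embryos 1 and 2, but in opposite directions. In wild type embryo 2 Timp2 was at its highest of the 8 embryos and Timp3 at its lowest of the 3 wild type embryos.

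Embryos of a genotype differed from each other more than cultures of an embryo did, for most members. The limma F test over cultures called all 7 tested members between wild type embryos, against 50.1% of all genes, with adjusted p between 3.7e-09 (Mmp3) and 0.0158 (Mmp9). Between E2F4 null embryos it called 6 of 7, against 22.9% of all genes, with adjusted p between 0.000932 (Timp3) and 0.0352 (Mmp9), and 0.158 for Mmp14, which was not called. By probe set it called 4 of 20 between E2F4 null embryos, against 8.96% of all probe sets, and 16 of 20 between wild type embryos, against 27.5%. Without the filter, where Mmp10 and Mmp13 enter, it called 3 of the 9 members between E2F4 null embryos, against 11.2% of all genes, and 9 of 9 between wild type embryos, against 30.6%. With the 3 arrays of outlying controls left out, which leaves 2 E2F4 null embryos with 1 culture, it called 2 of the 7 between E2F4 null embryos and 7 of 7 between wild type embryos. Between wild type embryos Mmp3 had an SD of 1.01 on the log2 scale (0.09 between cultures of an embryo), and between E2F4 null embryos 0.34 (0.14 between cultures). Its range over the 8 embryo means ranked 45 of 7436 genes, 2.20 against a median of 0.43. The SD between E2F4 null embryos was smaller than that between wild type embryos for 6 of the 7 members and 15 of the 20 probe sets. The exception among the 7 was Mmp9, at 0.40 in E2F4 null and 0.36 in wild type embryos, and for Timp1 both were 0.18. The median gene had 0.13 in E2F4 null and 0.15 in wild type embryos. The share of all genes with the smaller SD in E2F4 null embryos was not worked out, so these counts have no share to be read against. Whether the spread differs between the genotypes was not tested, and the SDs rest on 5 and 3 embryos.

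**Figure D4:**
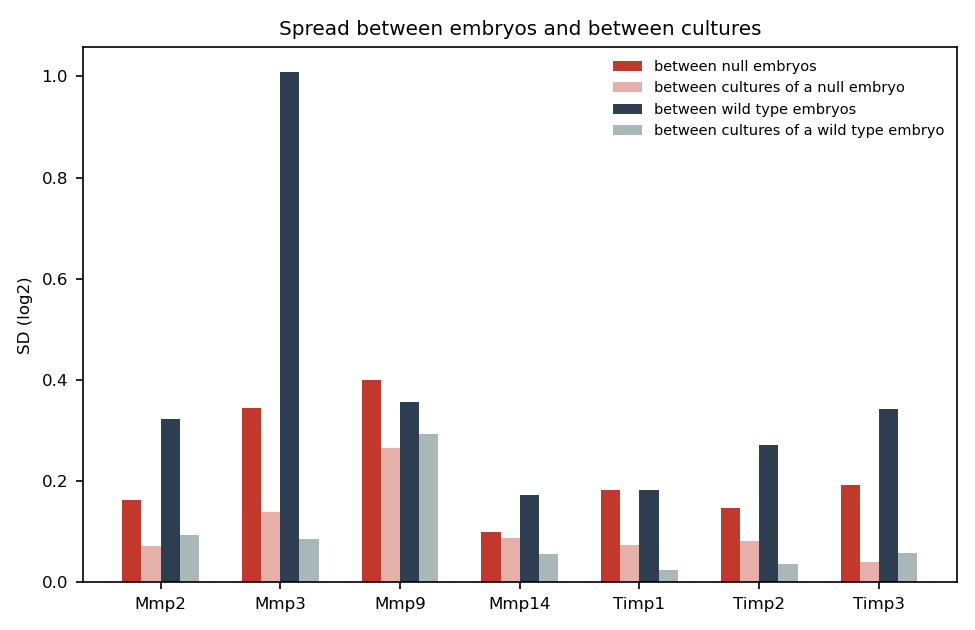
The SD (y axis, log2, starting at 0) between embryo means and between cultures of an embryo is drawn as bars for each of the 7 members that passed the filter, E2F4 null bars left of wild type bars. Mmp3 in wild type embryos, at 1.01, is the tallest bar, while the cultures of these embryos had an SD of 0.09.

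To follow the balance of proteases and inhibitors, each embryo's deviation from the mean of the 8 embryos was averaged over the 4 proteases that passed the filter and over the 3 inhibitors, and their difference was taken. The protease mean was -0.14 ± 0.06 in E2F4 null and 0.24 ± 0.35 in wild type embryos, and the inhibitor mean was -0.08 ± 0.08 in E2F4 null and 0.14 ± 0.08 in wild type embryos (log2, SD, n = 5 and 3). Proteases minus inhibitors came to -0.14, -0.01, -0.02, -0.09 and -0.04 in E2F4 null embryos 1 to 5, against 0.43, -0.06 and -0.08 in wild type embryos 1 to 3. All embryos but wild type embryo 1 lay near or slightly below 0. The balance averaged -0.06 ± 0.05 in E2F4 null and 0.10 ± 0.29 in wild type embryos, a difference of -0.16 that was within the pooled SD of 0.17. It was 0.01 without wild type embryo 1 and 0.01 when Mmp3 was left out of the proteases, an alternative chosen after seeing the data. With all 9 members it was -0.23. No test was made of this score.

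**Figure D5:**
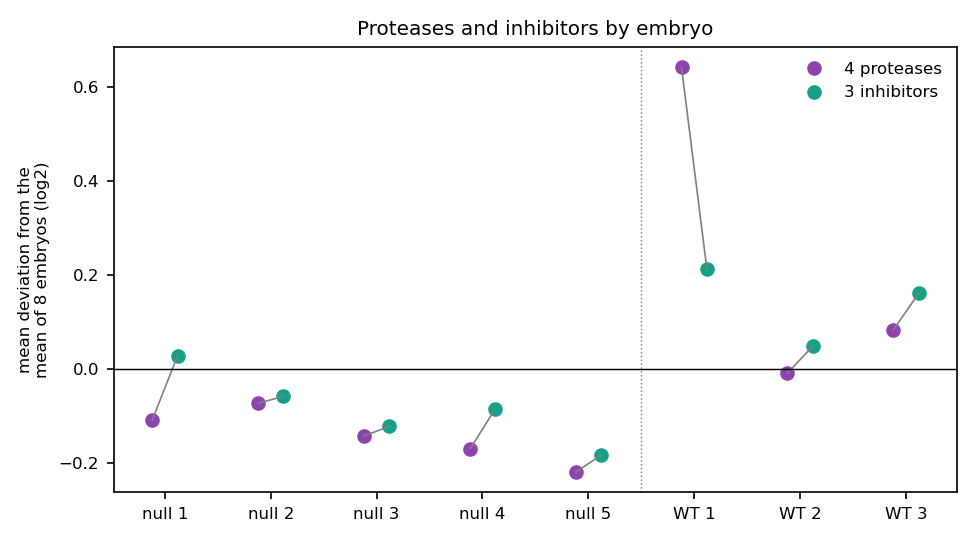
The mean log2 deviation from the 8-embryo mean (y axis) of the 4 tested proteases (purple) and 3 inhibitors (green) is joined by a line for each embryo (x axis, E2F4 null left, wild type right of the dotted line). In the E2F4 null embryos both means lie at or below 0.03, and wild type embryo 1 alone has its proteases well above its inhibitors.

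Taken pair by pair, the 4 proteases and 3 inhibitors gave 12 log2 ratios per embryo, of which 1 separated the groups. The share of all gene pairs that do so was not worked out, so this count has no background to be read against. Mmp14 minus Timp1 was 0.11, 0.04, 0.21, 0.22 and 0.29 in E2F4 null embryos 1 to 5, against -0.20, -0.21 and -0.46 in wild type embryos 1 to 3, each as a deviation from the mean of all 8. It was higher in every E2F4 null embryo, by 0.46 on average, while Mmp14 itself differed by -0.02 and Timp1 by -0.49. The ratio holds the Timp1 values and is not independent of them. The other 11 ratios overlapped between the genotypes.

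The embryos also fell into 2 classes by Xist, the RNA of the inactive X chromosome. It read 1209 to 2447 in E2F4 null embryos 1, 4 and 5 and wild type embryos 1 and 3, where the Y-linked Eif2s3y read 0.444 to 5.01. In E2F4 null embryos 2 and 3 and wild type embryo 2, Xist read 4.95 to 12 and Eif2s3y 350 to 679. Timp1 lies on the X chromosome. Among the 5 Xist-positive embryos it read 5492 to 7086 in the 3 E2F4 null and 9309 to 9347 in the 2 wild type embryos (-0.63), and among the 3 Xist-negative ones 5860 and 7081 in E2F4 null and 7490 in wild type (-0.22). It was thus lower in E2F4 null embryos in both classes. Mmp3 differed by -1.37 among the Xist-positive embryos and by 0.15 among the Xist-negative ones, and Mmp2 by -0.36 in each. With the class as a covariate, an alternative chosen after seeing the data, Timp1 differed by -0.49 (limma adjusted p = 0.359) and Mmp3 by -0.83 (limma adjusted p = 0.50). The Xist-negative class held 2 E2F4 null embryos and 1 wild type embryo, and the genotypes were not tested within either class.

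Over the 8 embryos, the 36 pairs of members had a median Pearson r of 0.39, and 30 were above 0. The lowest was between Timp2 and Timp3 (-0.76) and the highest between Mmp9 and Mmp10 (0.77). These are descriptions over 8 embryo means that share their genotype and the scaling of the arrays. Among the 7 members that passed the filter, the 3 with the largest range over the embryo means, Mmp3, Mmp9 and Timp1, were set against 7435 other genes each. Those most like Mmp3 were Ier2 (Pearson r = 0.98, Spearman rho = 0.83), Msl2 (0.97, 0.95) and Mtmr2 (0.97, 0.90). Ier2 averaged 834 ± 119 in E2F4 null embryos, against 1705, 652 and 1324 in wild type embryos 1 to 3, the same order of wild type embryos as for Mmp3. The genes most like Mmp9 were Uckl1 (0.98, 0.95), Lrp1 (0.98, 0.95) and Creb3l2 (0.97, 0.90). Those most like Timp1 were Junb (0.96, 0.83), Has2 (0.96, 0.98) and Zfp36 (0.95, 0.98). Has2 averaged 886 ± 256 in E2F4 null and 1456 ± 188 in wild type embryos, and Zfp36 averaged 265 ± 47.1 in E2F4 null and 404 ± 66.8 in wild type embryos. All of these genes were picked by r over the same 8 embryo means. An embryo order or genotype difference like the member's therefore follows from the choice and is no separate result.

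Further genes of matrix proteolysis were read from 5 lists, which together had 42 genes past the filter. None of the 42 was called by limma, and 3 had an unadjusted p under 0.05, against 8.7% of all genes, which is no larger a share than the background. Of the remaining 18 MMP and TIMP genes, 13 were on the array and 3 passed the filter, with a median difference of -0.23. Mmp11 averaged 120.2 ± 17.0 in E2F4 null and 145 ± 16.8 in wild type embryos (-0.25, limma adjusted p = 0.631) and Mmp23 averaged 465 ± 152 in E2F4 null and 537 ± 124 in wild type embryos (-0.23, limma adjusted p = 0.819). Mmp16, a membrane-type relative of Mmp14, differed by 0.04, and Timp4 was under the filter with at most 56.7 on any array.

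The plasminogen system yields plasmin, which activates several pro-MMPs, and was listed with proteins that control MMPs at the membrane. Of 12 such genes on the array 8 passed the filter, 5 below 0 (median -0.05). Bsg, a surface glycoprotein known to induce MMPs, averaged 3536 ± 276 in E2F4 null and 3807 ± 369 in wild type embryos (-0.10, limma adjusted p = 0.751). Plaur, the urokinase receptor, averaged 1114 ± 258 in E2F4 null and 1309 ± 343 in wild type embryos (-0.23, limma adjusted p = 0.788). The overlap between genotypes held for all 8.

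Of the ADAM and ADAMTS proteases, which shed surface proteins or cut proteoglycans, 11 of 12 on the array passed, 7 below 0 (median -0.02). The aggrecanase Adamts4 averaged 164 ± 36.4 in E2F4 null and 259 ± 80.0 in wild type embryos (-0.59, limma adjusted p = 0.450). Adamts5, the other main aggrecanase, averaged 743 ± 53.0 in E2F4 null and 626 ± 145 in wild type embryos (0.27, limma adjusted p = 0.609). These 2 thus leaned in opposite directions and neither passed. Of the lysosomal cathepsins and their inhibitor Cst3, 7 of 7 passed the filter, 5 below 0 (median -0.13), and Ctsk, a collagen-cutting cathepsin, averaged 598 ± 85.4 in E2F4 null and 734 ± 155 in wild type embryos (-0.28, limma adjusted p = 0.661).

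Of the regulators and inducers of MMP transcription, 13 of 17 on the array passed the filter and 11 of these were below 0, against 51% of all genes (median -0.14). Nfkbia, an inhibitor and itself a target of NF-kappaB, averaged 2141 ± 235 in E2F4 null and 3179.6 ± 262 in wild type embryos (-0.57, limma adjusted p = 0.192). Its E2F4 null embryos all lay below its wild type embryos, which held for no other gene of the 13 tested in this list and for 3.71% of all genes. Junb, an AP-1 subunit, averaged 419 ± 103 in E2F4 null and 642 ± 154 in wild type embryos (-0.60, limma adjusted p = 0.456). Of the ETS factors, which share many MMP promoters with AP-1, Ets2 differed by -0.23 and Etv4 by 0.42, with no call.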

How the data were processed

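The authors deposited linear signal intensities for every probe set and array, which the submitters' processing notes credit to MAS5 (version not given in the sources used here). No detection calls were used. Symbols came from the platform annotation, updated through the RefSeq gene table of GRCm38.p6 (20364 of 20393 probe sets with 1 symbol matched). The log2(signal + 16) was averaged within each embryo, read as the first number of the sample title. The probe set of highest mean stood for a gene, and a filter at the 40th percentile of mean signal kept 7436 of 12393 genes. E2F4 null minus wild type was tested with limma 3.58.1 in R 4.3.3 (lmFit, eBayes with trend, two-sided, Benjamini-Hochberg over the whole table), and again on all 22626 probe sets without the filter. Embryos of 1 genotype were compared by the limma F test over cultures. The fits were tested on simulated data. The members, lists and tests were chosen with earlier results of these data known. Named are all members, E2f4, at most 4 genes of each list by p, and the 3 genes most correlated with each of the 3 members of largest range among those past the filter. Lum, Pdgfra and Dcn were added for their spread, and Sox9 as a further cartilage marker past the filter. Alternatives changed the pseudocount, filter, scaling, probe set, embryos, block and variance model. The number of embryos limits the precision.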

Additional observations from a re-analysis of the deposited data

How the results depend on the processing

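No member was called in 20 of 22 alternatives by gene and 16 of 18 by probe set. The exceptions entered the 20 cultures themselves. A random block for the embryo takes 1 correlation between its cultures for the whole fit, so cultures may still count in part as replicates. With this block, 1 member gene was called (Timp1, limma adjusted p = 0.00243, among 80 genes called) and 2 probe sets (Timp1 and Timp2 1433662_s_at, 0.00176 and 0.0335). With cultures as independent samples, which counts cultures of 1 embryo as replicates, 2 genes were called (Timp1 and Mmp3, limma adjusted p = 0.000161 and 0.0391, among 544) and 3 probe sets (Timp2 1454677_at added, 0.0131). Over all genes, 1 was called on all embryos and 0 to 11 with an embryo left out. The protease and inhibitor balance was 0.043 with the filter at the 60th percentile, where Mmp3 and Mmp9 drop out, and -0.24 to 0.01 with an embryo left out. It also depended on the probe sets, at -0.059 with the mean over all probe sets of a gene against -0.16 with the brightest. The count of members that differed between E2F4 null embryos was 3 without the filter and 2 without 3 arrays whose control probe sets stood apart (chosen after seeing the data), which leaves 2 of these embryos with 1 culture.

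Leaving out an embryo turned the sign of 5 probe sets, with no call. Mmp14 ran between -0.089 (without wild type embryo 2) and 0.073 (without wild type embryo 1), its second probe set 1416572_at between -0.052 and 0.097, Timp2 between -0.18 and 0.069, Timp3 between -0.29 and 0.049, and Mmp9 1448291_at between -0.28 and 0.25. Without the 3 arrays, Mmp14 1416572_at was -0.0026. The cause was not tested. The labels do not say that the embryo numbers pair the samples, and this was not tested. Deviations of same-numbered embryos correlated at 0.064, 0.63 and 0.45. With the number as a replicate block, 0 members were called, Timp1 was -0.38, Mmp3 -1.06 and Mmp14 0.027. Signals near or below the filter limit what Mmp9, Mmp10 and Mmp13 can show, and the lower embryos of Mmp3 lay near it too.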
